A study of Mus musculus with 8 samples.

Results

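Genes whose products dissolve bone were followed in mouse bone marrow-derived macrophages (BMMs), the precursor cells that can fuse into osteoclasts. Taken by symbol from the deposited table of 24421 genes, the set held 10 genes: Ctsk, Acp5, Mmp9, Mmp14, Car2, Slc4a2, Clcn7, Ostm1, Ckb and Plekhm1. All 10 were in the table and all 10 passed the filter on low values, which kept 12194 genes. Poly-A RNA was sequenced from 4 groups of 2 libraries each. Rbpj knockout (KO) BMMs were Rbpj f/f;LysMCre cells, in which Cre driven from the LysM locus deletes Rbpj in myeloid cells. These cells were taken either 2 days into treatment with 40 ng/ml TNF or untreated at day 0. Wild-type (WT) control BMMs were sampled at the same times, and the labels do not say whether these controls carry the floxed allele or Cre. Rbpj encodes RBP-J, the transcription factor through which Notch receptors act. An untreated culture held as long is lacking from the design, so in every difference between TNF and day 0 the cytokine and the time in culture cannot be told apart.

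An osteoclast seals a patch of bone and turns the facing membrane into a folded ruffled border. Carbonic anhydrase 2 (Car2) supplies protons and bicarbonate. The vacuolar proton pump (V-ATPase) moves the protons out. The chloride-proton exchanger ClC-7 (Clcn7), with its partner Ostm1, moves chloride out as well, and the anion exchanger Slc4a2 removes the bicarbonate on the opposite side of the cell. Acid dissolves the mineral, and cathepsin K (Ctsk) then cuts the exposed collagen. Tartrate-resistant acid phosphatase (Acp5) is the classical stain for osteoclasts, Mmp9 and Mmp14 are matrix metalloproteinases, brain-type creatine kinase (Ckb) regenerates ATP, and Plekhm1 is an adaptor for the fusion of late endosomes and lysosomes that builds the ruffled border. Loss of Ctsk, Clcn7, Ostm1, Car2 or Plekhm1 is known to cause dense, poorly resorbed bone in humans.

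Promoter stretches of Ctsk, Acp5 and Clcn7 are shown because Ctsk and Acp5 had the largest differences between KO and WT cells after TNF, and Clcn7 holds a site of the type bound by MITF and its relatives, transcription factors of osteoclasts and lysosomes. They are from RefSeq on build GRCm38.p6, written 5′ to 3′ on the strand of the gene, with motif matches in capitals. The motifs searched on both strands were TGGGAA (RBP-J core), GGAAA (NFAT core), TGANTCA (AP-1), TCACGTGA and TCATGTGA (both MITF and TFE factors). Ctsk lies at chr3:95499010-95499219 on the plus strand, Acp5 at chr9:22130599-22130758 on the minus strand before the start of 1 of its transcripts, and Clcn7 at chr17:25133271-25133410 on the plus strand.
Ctsk: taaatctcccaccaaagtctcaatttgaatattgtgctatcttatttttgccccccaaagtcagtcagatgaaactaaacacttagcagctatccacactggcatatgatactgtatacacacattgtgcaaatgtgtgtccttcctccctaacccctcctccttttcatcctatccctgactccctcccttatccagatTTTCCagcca
Acp5: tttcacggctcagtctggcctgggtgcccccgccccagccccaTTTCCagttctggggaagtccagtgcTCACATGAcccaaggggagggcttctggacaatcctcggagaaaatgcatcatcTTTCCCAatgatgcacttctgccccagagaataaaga
Clcn7: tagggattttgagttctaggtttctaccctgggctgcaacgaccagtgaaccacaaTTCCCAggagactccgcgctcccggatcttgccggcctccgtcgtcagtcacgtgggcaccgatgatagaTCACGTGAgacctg
The capitals mark an NFAT core in Ctsk. In Acp5 they mark an NFAT core, the TCATGTGA motif on the other strand and, near the start, an NFAT and an RBP-J core that overlap. In Clcn7 they mark an RBP-J core and the TCACGTGA palindrome just inside the transcript. Windows of 250 bases before to 50 after a start were given for 8 of the 10 genes, 12 windows in all. TGGGAA was in 4 of the 12 windows, of 3 genes (Acp5, Clcn7 and Slc4a2), against 25.6% of all 32851 windows of that length. GGAAA was in 8 of 12, against 61.3% of all windows, and TGANTCA in 0 of 12, against 7.81%. The TCACGTGA palindrome was in 1 of 12, against 0.974%, and TCATGTGA in 1 of 12, against 0.986%. A match of letters is a description and not a site of binding.

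Depth ranged from 9855859 reads in KO replicate 1 with TNF to 35653203 reads in WT replicate 1 with TNF. Rbpj itself had 30.0 and 21.4 CPM (the reads of a gene scaled to the reads counted in its library) in KO cells with TNF against 226 and 178 in WT cells with TNF, and 38.9 and 31.8 CPM in KO cells at day 0 against 215 and 216 in WT cells at day 0. The 6 macrophage markers summed to between 4568 and 9223 CPM in every library, and to 4568 and 6075 CPM in KO cells with TNF against 6205 and 7023 CPM in WT cells with TNF. For KO against WT after TNF 1 of the 6 was higher and the median was -0.57. With the block limma called 1 lower, where 3.75% of all genes were called lower. This was Lyz2 (lysozyme M) at -1.45, with adjusted p = 0.0481 by limma and 0.0593 by edgeR with the block. DESeq2 called 0 of the 6 without the block and 3 lower with it, where 19% of all genes passed. Lyz2 had 13.7 and 25.8 CPM in KO cells with TNF, against 26.6 and 101.9 CPM in WT cells with TNF. Lyz2 is the LysM locus from which Cre is driven in KO cells, and the part of Cre in its value was not tested. Whether reads that Lyz2 shares with similar genes were left out of its counts was not tested either. Mrc1, the mannose receptor, had 59.7 to 106 CPM with TNF, against 881 to 1457 CPM at day 0. The part of these markers in the values below was not tested. Markers of stromal cells, which also make Ctsk and Mmp14, summed to 117 to 179 CPM in the replicate 1 libraries of all 4 groups and to 4.49 to 33.2 CPM in the replicate 2 libraries. Markers of erythroid cells, which also make Car2, stayed (chiefly Epor and Alas2) at or below 1.93 CPM in sum, with the 4 adult haemoglobin genes at 0 in all 8 libraries. Reads shared between similar genes, as these are, can be left out of counts, so these values of 0 may not show absence. The replicate number was treated as pairing libraries across groups, because the series describes 2 independent experiments. Values from the fit with the replicate as a block are therefore given beside those without it. No label says that the libraries came from separate animals, so a p-value here reflects only how far these samples differ.

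After TNF, CPM was higher in KO than in WT cells within both replicates for all 10 genes. Clcn7 and Ostm1 overlapped between these groups, and limma without the block called 0 of the 10. The largest ratios of CPM, within replicates 1 and 2, were 7.93 and 16.3 for Ctsk, 5.11 and 15.99 for Acp5, 5.61 and 15.0 for Car2 and 5.70 and 10.1 for Ckb. By the mean log2 difference the smallest were Mmp14, with ratios of 1.48 and 1.94, and Clcn7, with 1.87 and 1.68. The ratio was larger in replicate 2 than in replicate 1 for 9 of the 10 genes, all but Clcn7. Neither of these counts by replicate was made over all genes. Together the 10 genes took 1.96% and 4.40% of all reads in KO cells with TNF, against 0.764% and 0.639% in WT cells with TNF. At day 0 they took 0.133% and 0.110% in KO cells, against 0.129% and 0.0901% in WT cells.

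The test was limma on log2(CPM + 0.5) with Benjamini-Hochberg adjustment over all 12194 genes and a threshold of adjusted p = 0.05. Without the block, 0 of the 10 genes passed for KO against WT after TNF, where 0.0082% of all genes tested did. At an unadjusted p under 0.05, 7 of the 10 passed, against 11.3% of all genes (27.4% with the block). edgeR without the block called 0 of the 10, and 0% of all genes. DESeq2 without it called 7, all higher, where 5.06% of all genes passed (375 of 11721 higher). With the replicate block, limma called 7 of the 10, all higher in KO cells (Ctsk, Acp5, Mmp9, Car2, Slc4a2, Ckb and Plekhm1), where 5.53% of all genes were called higher. With the block edgeR called 5, where 3.79% of all genes were called higher. DESeq2 with it called 8, all higher, where 19% of all genes passed (1244 of 12194 higher). The groups did not overlap for 8 of the 10, against 18.8% of all genes with all KO values above all WT values. The median log2 difference of the 10 was 1.88, and that of all genes tested was 0.02. The 7 blocked calls rest on replicate 2: leaving out KO replicate 2 with TNF, or WT replicate 2 with TNF, left 0 of them. Among all genes the same fits made 7 and 0 calls, against 1131 with all libraries, so the loss was not particular to the 10. Leaving out KO replicate 1 with TNF gave 8 (Ostm1 was added; 1169 among all genes). Leaving out WT replicate 1 with TNF gave 5 (524 among all genes), either KO library at day 0 gave 5 (416 and 415) and either WT library at day 0 gave 6 (675 and 672).

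**Figure D1:**
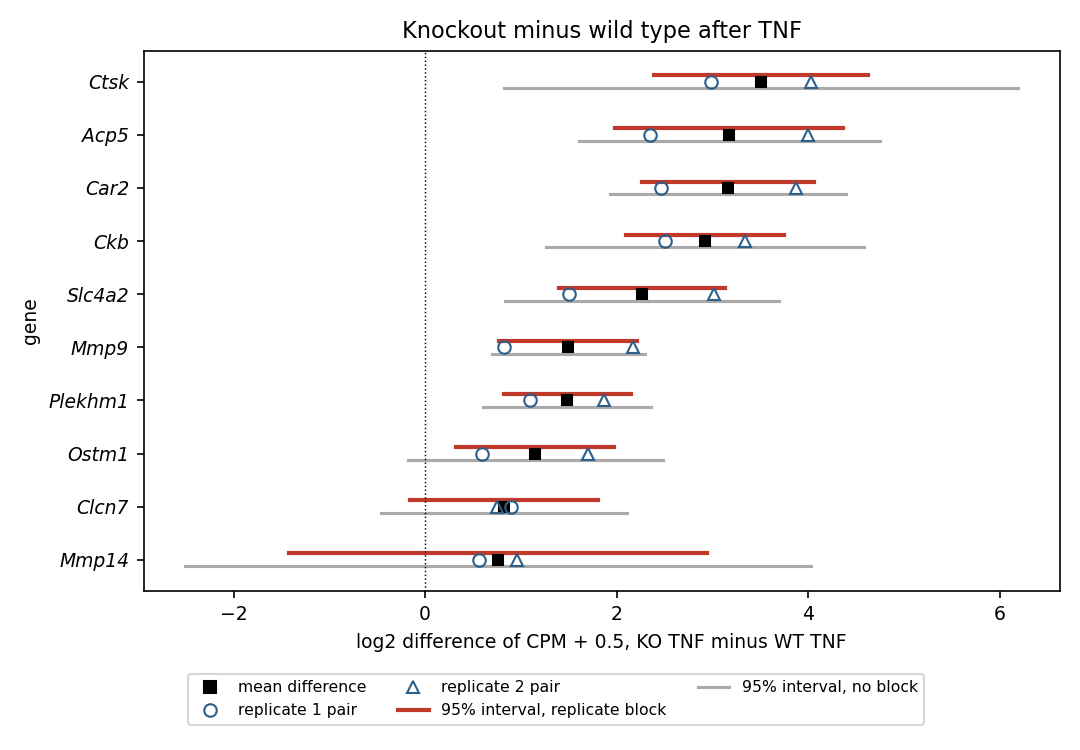
Log2 difference of CPM + 0.5, KO TNF minus WT TNF, for each gene, with the mean (square), the pair of each replicate (circle, triangle) and 95% intervals of the limma fit with the replicate block (red) and without it (grey). All replicate pairs lie above 0, from 0.56 for Mmp14 in replicate 1 to 4.03 for Ctsk in replicate 2.

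Among the matrix enzymes, Ctsk (chr3:95499256-95509362; positions are of protein-coding genes in GENCODE M21 on GRCm38) had 2355 and 15476 CPM in KO cells with TNF, against 297 and 948 CPM in WT cells with TNF. At day 0 it had 4.72 and 7.46 CPM in KO cells, against 5.50 and 30.0 CPM in WT cells. Replicate 2 was the higher library in every group, and the TNF groups did not overlap. By abundance Ctsk ranked 14 and 1 among all genes in the KO libraries with TNF, so it was the most abundant gene of KO replicate 2, against ranks of 548 and 120 in the WT libraries with TNF. The log2 difference between KO and WT after TNF was 3.51 ± 1.12 (SE; limma, adjusted p = 0.295), and with the block 3.51 ± 0.46 (adjusted p = 0.0194). Against day 0, Ctsk rose in KO cells by 9.87 ± 1.12 on the log2 scale (limma, adjusted p = 0.00898). In WT cells the difference was 5.29 ± 1.12 (adjusted p = 0.0961), and it passed with the block (SE 0.46, limma adjusted p = 0.00235). The stromal markers summed to 179 and 8.23 CPM in KO cells with TNF and 143 and 33.2 CPM in WT cells with TNF, and limma called 0 of the 5 tested for KO against WT with the block or without it (0 also at an unadjusted p under 0.05, and 0 by edgeR and DESeq2). The most abundant of them, Col1a1 and Col1a2, had log2 differences of -1.18 and -0.71, and the part of these markers in the Ctsk values was not tested.

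Acp5 (chr9:22126727-22135711) had 4972 and 10199 CPM in KO cells with TNF, against 973 and 638 CPM in WT cells with TNF. At day 0 the values were 18.7 and 64.1 CPM in KO cells, against 11.2 and 20.1 CPM in WT cells. The KO and WT libraries with TNF were clearly apart, while those at day 0 overlapped. After TNF the log2 difference between KO and WT was 3.18 ± 0.66 (limma, adjusted p = 0.176), and with the block it passed (SE 0.50, adjusted p = 0.0228). Against day 0, Acp5 rose by 7.66 ± 0.66 in KO cells (limma, adjusted p = 0.00513) and by 5.67 ± 0.66 in WT cells (limma, adjusted p = 0.0215).

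Mmp9 (chr2:164940780-164955850), which cleaves denatured collagen, had 8354 and 12493 CPM in KO cells with TNF, against 4718 and 2777 CPM in WT cells with TNF. At day 0 it had 14.5 and 14.3 CPM in KO cells, against 13.2 and 11.8 CPM in WT cells. It was the second most abundant gene in both KO libraries with TNF and already ranked 7 and 27 in the WT libraries with TNF. The log2 difference between KO and WT after TNF was 1.497 ± 0.33 (limma, adjusted p = 0.192; with the block SE 0.30, adjusted p = 0.0357). Against day 0, Mmp9 rose by 9.42 ± 0.33 in KO cells (limma, adjusted p = 0.000322) and by 8.12 ± 0.33 in WT cells (limma, adjusted p = 0.00128). Neutrophils also make Mmp9, and their 8 markers in the table summed to 32.7 and 49.99 CPM in KO cells with TNF and 60.3 and 139 CPM in WT cells with TNF, below the day 0 range of 141 to 999 CPM. With the block limma called 1 of the 8 for KO against WT after TNF, Camp, lower at -1.41, where 3.75% of all genes were called lower. The part of these markers in the Mmp9 values was not tested.

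Mmp14 (chr14:54431612-54445364), the membrane-anchored metalloproteinase, had 1086 and 1741 CPM in KO cells with TNF, against 734 and 896 CPM in WT cells with TNF. In untreated cells at day 0 it had 10.3 and 232 CPM in KO cells, against 3.83 and 16.3 CPM in WT cells, and KO replicate 2 stood far above the other 3 libraries. The log2 difference between KO and WT after TNF was 0.76 ± 1.36 (limma, adjusted p = 0.980; with the block adjusted p = 0.636), and the blocked 95% interval ran from -1.42 to 2.94. Without WT replicate 2 with TNF that difference was -0.27 with the block. Against day 0 the difference was 4.78 ± 1.36 in KO cells (limma, adjusted p = 0.108) and 6.57 ± 1.36 in WT cells (limma, adjusted p = 0.0925). Both passed with the block, with limma adjusted p = 0.0127 in KO cells and 0.00968 in WT cells. Without KO replicate 2 at day 0, the difference in KO cells was 6.99 (limma, adjusted p = 0.0475).

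**Figure D2:**
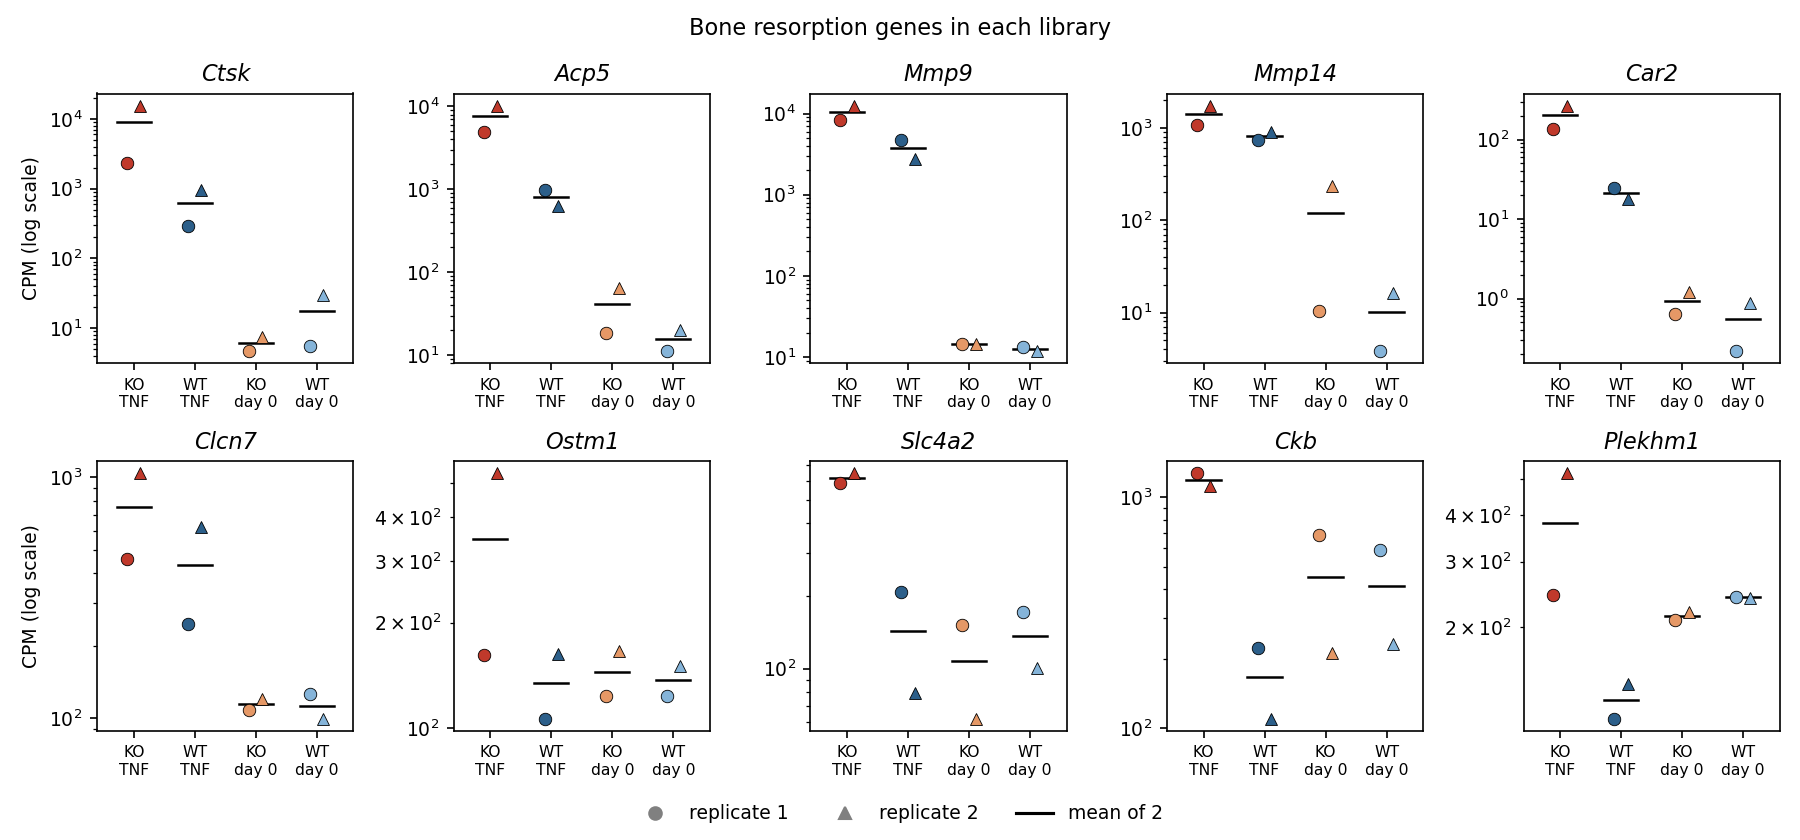
CPM of the 10 genes in each of the 8 libraries, on a log axis, by group (KO TNF, WT TNF, KO day 0, WT day 0). Circles are replicate 1, triangles replicate 2 and lines the mean of 2 libraries; Ctsk, Acp5, Mmp9, Mmp14 and Car2 are highest after TNF, while Ckb and Plekhm1 are at their lowest in WT cells with TNF.

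In the acid-secretion group, Car2 (chr3:14886273-14900770) had 136 and 266 CPM in KO cells with TNF, against 24.2 and 17.8 CPM in WT cells with TNF. Day 0 levels were near the floor, at 0.643 and 1.199 CPM in KO cells, against 0.219 and 0.890 CPM in WT cells, from 18, 27, 6 and 24 reads. The TNF groups did not overlap, and both were far above day 0. After TNF the log2 difference between KO and WT was 3.17 ± 0.51 (limma, adjusted p = 0.131), the lowest unblocked p of the 10, and with the block it passed (SE 0.37, adjusted p = 0.0180). Against day 0, Car2 rose by 7.10 ± 0.51 in KO cells (limma, adjusted p = 0.00367) and by 4.41 ± 0.51 in WT cells (limma, adjusted p = 0.0220). The pseudocount of 0.5 understates both, since the day 0 values are about as small as the pseudocount.

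Slc4a2 (chr5:24423837-24440950), which trades bicarbonate for chloride, had 589 and 644 CPM in KO cells with TNF, against 207 and 78.9 CPM in WT cells with TNF. At day 0 it had 152 and 62.1 CPM in KO cells, against 172 and 100.4 CPM in WT cells. The KO libraries with TNF stood apart from the other 6, which overlapped. For KO against WT after TNF, the log2 difference was 2.26 ± 0.60 (limma, adjusted p = 0.220; with the block SE 0.36, adjusted p = 0.0235). Against day 0 it was 2.66 ± 0.60 in KO cells (limma, adjusted p = 0.0587; with the block adjusted p = 0.00423). In WT cells it was -0.04 ± 0.60, not called, with an interval from -1.47 to 1.39, and it turned to 0.076 with TMM scaling. Slc4a2 overlaps Fastk on the opposite strand, and transcripts on the opposite strand also overlap Acp5 (6530413G14Rik, across the gene), Ostm1 (Gm15200) and Plekhm1 (Arhgap27os1). The strand setting of the counting is not given in the sources used here, so reads of these 4 genes and of their partners may not be told apart, and the partners other than Fastk were not analysed here. Fastk had 108 and 81.0 CPM in KO cells with TNF, against 67.0 and 35.5 CPM in WT cells with TNF, so its part in the Slc4a2 values was not tested.

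Clcn7 (chr17:25133391-25162104) had 460 and 1041 CPM in KO cells with TNF, against 246 and 619 CPM in WT cells with TNF. Before TNF, at day 0, it had 108 and 120 CPM in KO cells, against 125 and 99.5 CPM in WT cells. Replicate 2 was higher in both TNF groups, and those groups overlapped because WT replicate 2 exceeded KO replicate 1. Between KO and WT after TNF the log2 difference was 0.82 ± 0.54 (limma, adjusted p = 0.716; with the block adjusted p = 0.251). Clcn7 rose against day 0 in KO cells by 2.59 ± 0.54 (limma, adjusted p = 0.0465). In WT cells the difference was 1.80 ± 0.54 (limma, adjusted p = 0.224), which passed with the block (adjusted p = 0.0425).

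Ostm1 (chr10:42583822-42702459), the partner subunit of ClC-7, had 161 and 532 CPM in KO cells with TNF, against 107 and 163 CPM in WT cells with TNF. At day 0 it had 124 and 167 CPM in KO cells, against 124 and 150.3 CPM in WT cells. KO replicate 2 with TNF was the only library outside the range of 107 to 167 CPM that held the other 7. The log2 difference between KO and WT after TNF was 1.15 ± 0.56 (limma, adjusted p = 0.534; with the block adjusted p = 0.0872), and against day 0 it was 1.03 ± 0.56 in KO cells (limma, adjusted p = 0.392; with the block adjusted p = 0.0704). In WT cells the difference against day 0 was -0.05 ± 0.56, with an interval from -1.38 to 1.28, and it was 0.065 with TMM scaling.

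Ckb (chr12:111669361-111672338), which supplies ATP to the resorbing cell, had 1269.5 and 1114 CPM in KO cells with TNF, against 223 and 110.0 CPM in WT cells with TNF. Its day 0 values were 687 and 211 CPM in KO cells, against 591 and 232 CPM in WT cells. Within each replicate the order was KO with TNF, then both day 0 groups, then WT with TNF. For KO minus WT after TNF, the log2 difference was 2.92 ± 0.69 (limma, adjusted p = 0.194), which passed with the block (SE 0.34, adjusted p = 0.0180). Against day 0, the difference was 1.64 ± 0.69 in KO cells (limma, adjusted p = 0.263; with the block adjusted p = 0.0174) and -1.24 ± 0.69 in WT cells (limma, adjusted p = 0.599; with the block adjusted p = 0.0711).

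Plekhm1 (chr11:103364275-103412687) had 244 and 517 CPM in KO cells with TNF, against 114 and 141 CPM in WT cells with TNF. The day 0 libraries had 209 and 219 CPM in KO cells, against 241 and 239.7 CPM in WT cells. All 4 day 0 libraries lay above both WT libraries with TNF and below both KO libraries with TNF. The log2 difference between KO and WT after TNF was 1.48 ± 0.37 (limma, adjusted p = 0.205; with the block SE 0.28, adjusted p = 0.0298). Against day 0 it was 0.73 ± 0.37 in KO cells (limma, adjusted p = 0.352; with the block adjusted p = 0.0984) and -0.92 ± 0.37 in WT cells (limma, adjusted p = 0.376; with the block adjusted p = 0.0838).

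**Figure D3:**
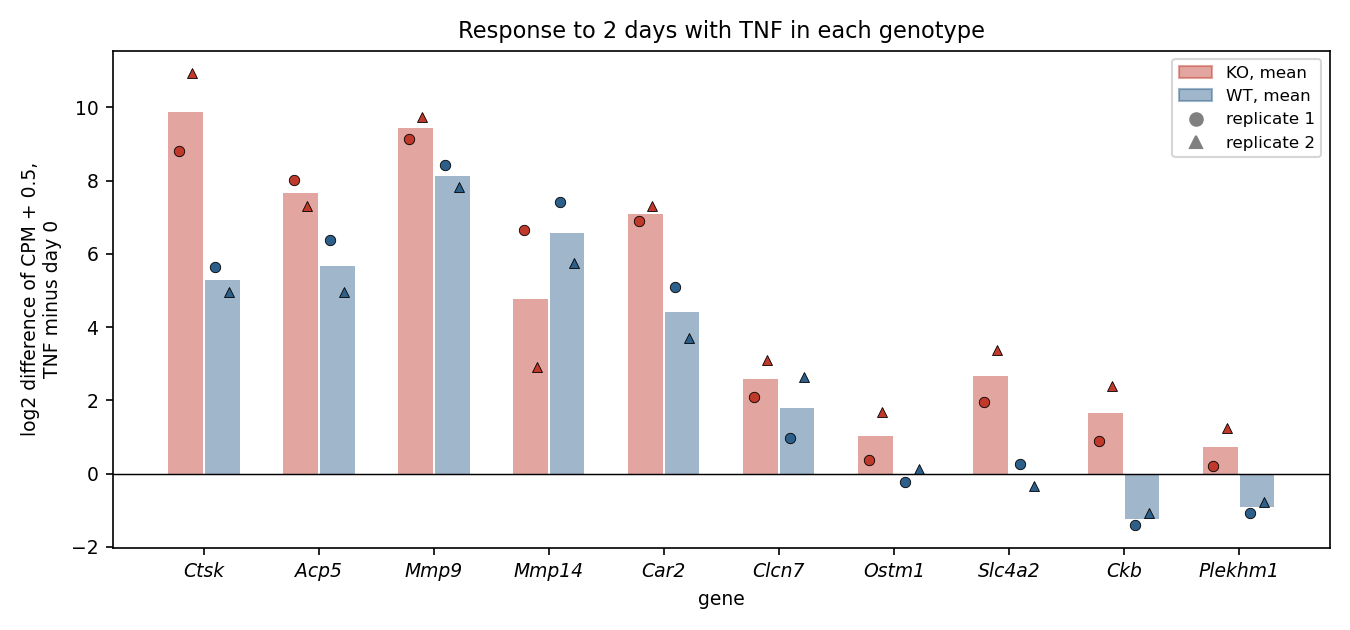
Log2 difference of CPM + 0.5, TNF minus day 0, for the 10 genes in KO (red, left) and WT (blue, right) cells, with bars for the mean and symbols for each replicate. Mmp9 has the highest bar in WT cells at 8.12 and Ctsk in KO cells at 9.87, while Ckb and Plekhm1 point up in KO cells and down in WT cells.

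Against day 0, KO cells with TNF carried more of all 10 transcripts in both replicates, with log2 differences from 0.73 for Plekhm1 to 9.87 for Ctsk. The count by replicate was not made over all genes. limma called 5 of the 10 higher (Ctsk, Acp5, Mmp9, Car2 and Clcn7), where 3.09% of all genes were called higher. With the block it called 8, adding Mmp14, Slc4a2 and Ckb, where 12.2% of all genes were called higher. The groups did not overlap for 9 of the 10, all but Ostm1, against 20.4% of all genes that were higher without overlap. The median of the 10 was 3.72, and that of all genes was -0.10. Which of the 10 passed depended on the library left out, without the block and with it, and calls among all genes changed as well. Without the block, leaving out 1 library at a time gave log2 differences of 8.51 to 11.2 for Ctsk and 2.01 to 3.18 for Clcn7. For Slc4a2 they were 2.01 to 3.30 and for Mmp14 2.56 to 6.99. With the block, Clcn7 ran from 2.20 to 2.99, Ckb from 1.06 to 2.23 and Mmp14 from 3.05 to 6.50. Ostm1 ran from 0.39 to 1.67 and Plekhm1 from 0.25 to 1.21, also with the block.

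In WT cells, the matrix enzymes, Car2 and Clcn7 were higher after TNF than at day 0, while the ATP enzyme Ckb and the adaptor Plekhm1 were lower in both replicates and Ostm1 and Slc4a2 overlapped between the times. limma called 3 of the 10 higher (Acp5, Mmp9 and Car2), where 0.812% of all genes were called higher, and with the block 6, adding Ctsk, Mmp14 and Clcn7, where 5.54% of all genes were. Ckb and Plekhm1 were not called by limma, with the block or without it, and DESeq2 with the block called Ckb lower (adjusted p = 0.0285), where 9.51% of all genes were. Without overlap between the times, 6 of the 10 were higher and 2 lower, against 14.8% and 22.6% of all genes. The median of the 10 was 3.11, and that of all genes was -0.12. The calls changed with the library left out, among the 10 and among all genes, without the block and with it. Without the block, leaving out 1 library at a time gave log2 differences of 5.26 to 6.07 for Acp5 and 7.74 to 8.51 for Mmp9. For Car2 they were 3.93 to 4.89. With the block they were 1.19 to 2.41 for Clcn7 and 5.54 to 7.61 for Mmp14. Ckb ran from -1.43 to -1.05 and Plekhm1 from -1.17 to -0.67, also with the block.

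At day 0, no difference between the genotypes passed the test in these genes. By limma, 0 of the 10 passed for KO against WT, where 0% of all genes did without the block and 0.0082% with it. At an unadjusted p under 0.05, 0 of the 10 passed without the block and 1 with it (Mmp14), against 1.34% and 5.98% of all genes, and edgeR and DESeq2 called 0 of the 10 with and without the block. DESeq2 called 0.197% of all genes without the block and 1.54% with it. The groups overlapped for 8 of the 10, and among all genes 9.86% were higher and 8.66% lower in KO cells without overlap. The exceptions were Mmp9, higher in KO cells by 0.20 ± 0.33, and Plekhm1, lower in KO cells at -0.17 ± 0.37. The widest difference was that of Mmp14, at 2.56 ± 1.36 with an interval from -0.71 to 5.82, followed by Acp5 at 1.18 ± 0.66 and Ctsk at -1.07 ± 1.12. The intervals of Ctsk, from -3.76 to 1.61, and of Acp5, from -0.39 to 2.75, still include differences of more than 1.5 on the log2 scale.

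The comparison that asks whether the TNF response itself depended on Rbpj is the difference between the KO and the WT response, which uses the same 8 libraries as the comparisons above. It was positive for 9 of the 10 genes in both replicates, from 0.79 ± 0.76 for Clcn7 to 4.58 ± 1.59 for Ctsk, and negative for Mmp14 at -1.80 ± 1.93. That count by replicate was not made over all genes. limma called 0 of the 10, with or without the block, where 0% of all genes were called. At an unadjusted p under 0.05, 6 passed without the block and 7 with it, against 5.65% and 18% of all genes. edgeR called 0 with and without the block. DESeq2 called 0 without the block, where 0.64% of all genes passed. With it DESeq2 called 5, all positive, where 8.86% of all genes passed (500 of 11248 positive). Slc4a2, at 2.69 ± 0.84, and Ckb, at 2.88 ± 0.98, had limma adjusted p = 0.818 and 0.821, and with the block 0.106 and 0.104. Leaving out KO replicate 1 with TNF, the shallowest library, gave 5 calls with the block (Ctsk, Ostm1, Slc4a2, Ckb and Plekhm1), and 358 among all genes. For Mmp14, both replicates were negative, at -0.76 and -2.83. Without KO replicate 2 at day 0 the difference was 0.42 in the fit without the block, while with the block it ran from -3.52 to -0.071 over the 8 libraries left out in turn.

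Levels of different genes were compared per kilobase of exon, as CPM per kb of all annotated exons joined. In KO cells with TNF the 3 highest means were 5896 for Ctsk, 4436 for Acp5 and 3283 for Mmp9, then 810 for Ckb, 338 for Mmp14, 171 for Clcn7, 133 for Slc4a2, 113 for Car2, 107 for Ostm1 and 63.7 for Plekhm1. The 3 leading genes did not keep their order: Acp5 led with 2908 CPM per kb in replicate 1, where Ctsk had 1557, and Ctsk led with 10236 in replicate 2, where Acp5 had 5964. The neighbours from Clcn7 to Ostm1 also changed places between the 2 libraries, while Ckb and Mmp14 came next after the 3 leading genes in both. In WT cells with TNF, Mmp9 led in both libraries with a mean of 1180 CPM per kb, and Car2 was lowest in both with a mean of 11.7. At day 0, Ckb led in all 4 libraries, with means of 305 in KO and 280 in WT cells, and Car2 was lowest in all 4.

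Other genes of the same machinery show how far these differences reached beyond the 10. The proton pump list had 15 of its 16 subunits tested. The other, Atp6v0c, had 1 read in KO replicate 1 and 3 in WT replicate 1, both with TNF, and 0 elsewhere. Reads shared between similar genes can be left out of counts, so these values may not show absence. For KO against WT after TNF, limma with the block called 10 of the 15 higher and 0 lower, where 5.53% of all genes were called higher. edgeR with the block called 6, all higher, where 3.79% of all genes were. Without it limma and edgeR called 0, and 8 had an unadjusted limma p under 0.05, against 11.3% of all genes. DESeq2 without it called 6, all higher, where 5.06% of all genes passed (375 of 11721 higher). The median log2 difference was 0.99, beside 0.02 for all genes. Atp6v0d2, a subunit of the membrane sector abundant in osteoclasts, had 1226 and 3402 CPM in KO cells with TNF, against 225 and 334 CPM in WT cells with TNF, a log2 difference of 2.90 ± 0.58 (limma, adjusted p = 0.176; with the block adjusted p = 0.0106). The peripheral subunits Atp6v1b2 (2.03), Atp6v1d (1.69) and Atp6v1c1 (1.46) followed. Against day 0, limma called 6 of the 15 subunits higher in KO cells (13 with the block, median 1.42). Of all genes, 3.09% were called higher in that comparison, and 12.2% with the block. In WT cells limma called 1 subunit higher (1 with the block, median 0.22), where 0.812% of all genes were called higher (5.54% with the block).

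Genes of ruffled border trafficking went both ways. Without the block limma and edgeR called 0 of 16 tested, and 4 had an unadjusted limma p under 0.05, against 11.3% of all genes. DESeq2 without it called 3, where 5.06% of all genes passed. The median was -0.14. edgeR with the block called 3 higher and 2 lower, where 462 and 349 of 12194 genes were. limma with the block called 3 higher and 3 lower in KO than in WT cells after TNF. Of all genes, it called 5.53% higher and 3.75% lower. Those higher were Rab38, a small GTPase of lysosome-related organelles, with 15.1 and 94.6 CPM in KO cells against 1.68 and 3.99 CPM in WT cells, the sugar phosphate transporter Slc37a2 (log2 difference 2.49) and the sorting nexin Snx10 (1.98), whose loss causes osteopetrosis in humans. Lamp2, a lysosomal membrane protein, was called lower at -1.10. Of 11 other cathepsins tested, limma called 0 with the block and 0 without it. At an unadjusted limma p under 0.05, 3 passed with it and 1 without it, against 27.4% and 11.3% of all genes. edgeR called 0 of them either way. DESeq2 called 0 without the block and 3 lower with it, where 1074 of 12194 genes were called lower. The median of the 11 was -0.40. Ctsb and Ctsd, the most abundant of them, had log2 differences of -0.40 ± 0.42 and -0.77 ± 0.44.

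Of 13 other metalloproteinases and inhibitors tested, limma and edgeR each called 0 higher and 1 lower with the block. Among 12194 genes, edgeR with the block called 462 higher and 349 lower. Without it limma and edgeR called 0, and 3 had an unadjusted limma p under 0.05, against 11.3% of all genes. DESeq2 without it called 2, both lower, where 218 of 11721 genes were called lower. The median was -0.67. The gene called with the block was Adam17, the sheddase that releases TNF from the membrane, at -0.97. Among carbonic anhydrase, CLC (the family of ClC-7) and SLC4 relatives, 10 of 25 were tested and 1 was called with the block. This was the bicarbonate transporter Slc4a8 at 2.32, from 2.54 and 8.33 CPM in KO cells and 0.449 and 0.636 CPM in WT cells. Among 6 tested relatives of Ckb, Acp5 and Plekhm1, the mitochondrial creatine kinase Ckmt1 was called higher at 2.83, from 5.58 and 11.8 CPM in KO cells and 0.841 and 0.594 CPM in WT cells, and Plekhm3 was called lower at -0.74, both with the block. Of all genes, limma with the block called 5.53% higher and 3.75% lower in this comparison. edgeR with the block called 0 of the first of these last 2 lists (Slc4a8, adjusted p = 0.0758) and both genes of the second. Without the block, limma and edgeR called 0 genes of these last 2 lists (1 and 2 at an unadjusted limma p under 0.05), and DESeq2 called 1 of each. Among all genes, 11.3% had an unadjusted limma p under 0.05 without the block, and DESeq2 called 5.06%.

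**Figure D4:**
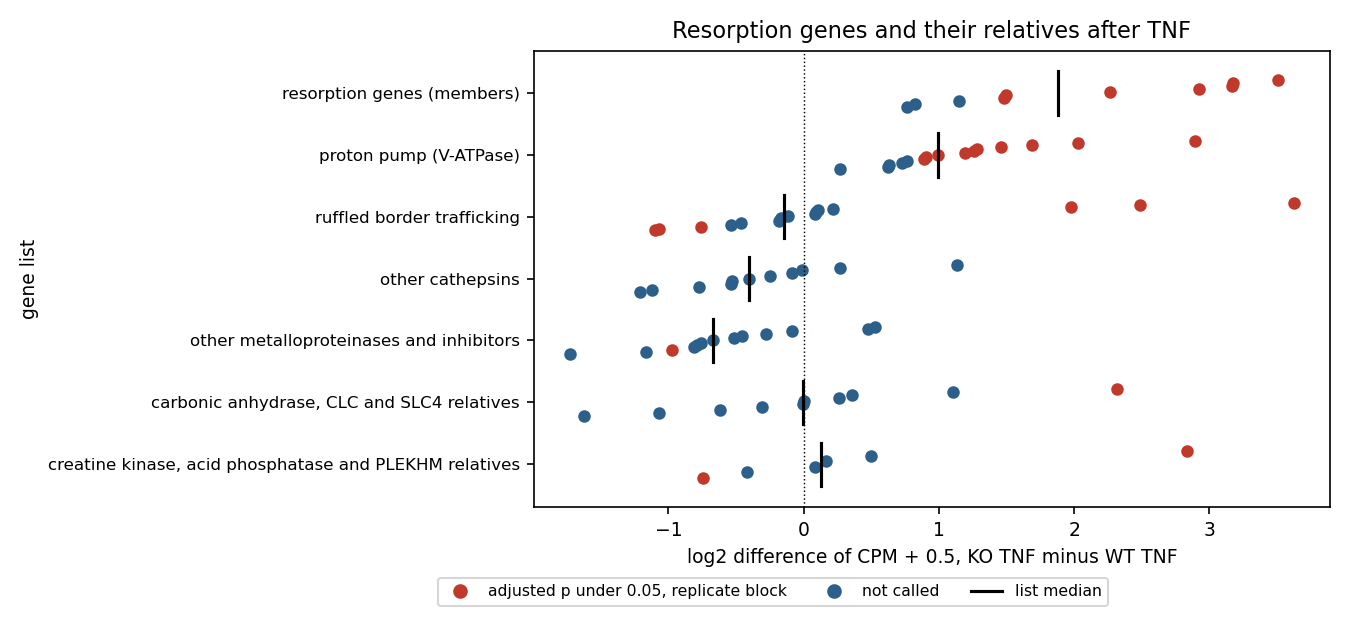
Log2 difference of CPM + 0.5, KO TNF minus WT TNF, for each tested gene of 7 lists, with the list median as a line. Red points were called by limma with the replicate block; the 10 resorption genes (median 1.88) and the proton pump (0.99) lie to the right of 0, and the other cathepsins (-0.40) and the other metalloproteinases and inhibitors (-0.67) have medians left of it.

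The 6 osteoclast markers moved in the same libraries. They summed to 1898 and 4294 CPM in KO cells with TNF, against 366 and 269 CPM in WT cells with TNF, and to 101 and 141 CPM in KO cells at day 0, against 101 and 132 CPM in WT cells at day 0. None was at 0 in a library with TNF. With the block limma called all 6 higher in KO than in WT cells after TNF, where 5.53% of all genes were called higher. edgeR with it called 5, all but Calcr (adjusted p = 0.0588), where 3.79% of all genes were called higher. Without it limma and edgeR called 0, and all 6 had an unadjusted limma p under 0.05, against 11.3% of all genes. DESeq2 without it called all 6 higher, where 5.06% of all genes passed (375 of 11721 higher). The integrin subunit Itgb3 had 307 and 1662 CPM in KO cells with TNF, against 19.8 and 60.3 CPM in WT cells with TNF. The next largest log2 differences were those of the calcitonin receptor Calcr (4.27), the fusion protein Ocstamp (4.04) and the immune receptor Oscar (3.77). Their part in the values of the 10 genes was not tested, and in bulk RNA more osteoclast-like cells and more RNA per cell cannot be told apart.

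Among genes whose values across the 8 libraries were most like those of a resorption gene, the likeness was measured as the root mean square of the differences between log2(CPM + 0.5) values after each gene's own mean was subtracted, over 10452 genes. For Acp5 and Car2 the closest gene was Dcstamp, a membrane protein needed for osteoclast fusion, at 0.57 and 0.34. For Ctsk it was Rufy4 at 1.17, and for Mmp9 Kbtbd11 at 1.21, the least close matches of the 10. Ostm1 lay closest to Traf6, the adaptor of RANK signalling, at 0.16, Mmp14 to Adgre4 at 0.65, Clcn7 to Rbfox2 at 0.34, Slc4a2 to Cox7a1 at 0.19, Ckb to Lpar2 at 0.50 and Plekhm1 to Mfsd11 at 0.19. Among the 10 genes themselves, the closest pairs were Ostm1 and Plekhm1 at 0.39, Acp5 and Car2 at 0.60 and Slc4a2 and Ckb at 0.66. These are descriptions over 8 libraries that share depth and replicate effects. The values were not scaled to each gene's own spread. Genes that vary little can therefore lie close to many others, and the distances of different genes do not compare directly.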

How the data were processed

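The submitters' processing notes name build mm10 and the tools HISAT2, HTSeq, fastp and edgeR, while versions, strand and annotation are not given in the sources used here. CPM is the unit the authors deposited. The values were whole multiples of 1 read (100% within 0.01), so reads were recovered for the count tests.

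limma (lmFit, eBayes with trend, 2-sided) was fitted to log2(CPM + 0.5) of genes reaching 1 CPM in 2 or more libraries, with group as the only term over all 8 libraries (4 residual degrees of freedom, 3 with the replicate block). A ± after a log2 value is its moderated standard error. Alternatives were the replicate block, edgeR quasi-likelihood, DESeq2, TMM and median-ratio scaling, other pseudocounts and filters, the libraries of a contrast alone, and each library left out. DESeq2 1.42.0, edgeR 4.0.16 and limma 3.58.1 ran in R 4.3.3. The fits were also run on simulated data in which the replicate effect was the same in every group. That setting suits the block by design, so it is no test of the block in these data.

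Pairing comes from the series design (2 independent experiments), though no label says that the replicate number marks the experiment. Across genes, replicate 2 minus replicate 1 correlated in all 6 pairings of the groups (Pearson r from 0.577 to 0.805). The fit without the block was the main one, and the block was an alternative. In no group were the 2 libraries equal within sampling noise.

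The genes, lists and rules were chosen with earlier results of these data known. Named were all 10 genes, Rbpj and, per list, up to 4 called genes with the largest differences, or the most abundant where none was called. Fastk was named after its values were seen, as a gene that overlaps Slc4a2. Exon lengths were taken from GENCODE M21 (GRCm38), and promoters from RefSeq (GRCm38.p6).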

Additional observations from a re-analysis of the deposited data

Results flagged for a closer look

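The TNF responses of Ckb and Plekhm1 pointed in opposite directions in the 2 genotypes. For Ckb the log2 difference between TNF and day 0 was 0.88 and 2.40 in the KO replicates and -1.41 and -1.07 in the WT replicates. The difference of the responses was 2.88 ± 0.98 (limma, adjusted p = 0.821; with the replicate block adjusted p = 0.104), positive in 2 of 2 replicates. For Plekhm1 the responses were 0.22 and 1.24 in the KO replicates and -1.08 and -0.76 in the WT replicates. Here the difference was 1.65 ± 0.52 (limma, adjusted p = 0.818; with the block adjusted p = 0.131), positive in 2 of 2 replicates. Neither difference passed the test over all genes.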

How the results depend on the processing

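With 2 libraries a group, the replicate block decided most calls. Of 1490 alternative values of single log2 differences, 45 changed sign, and in 0 of these was the main or the alternative value past the threshold. TMM and median-ratio scaling moved the median of all genes by 0.11 and 0.12 for WT TNF against WT day 0. In that comparison Ostm1 turned to 0.065 and 0.074 under them (with the block or without it), 0.13 with edgeR, 0.035 with edgeR and the block, 0.14 with DESeq2 and 0.044 with DESeq2 and the block, and Slc4a2 to 0.076, 0.086, 0.13, 0.092, 0.14 and 0.10. Clcn7 for KO against WT at day 0 turned to -0.041 with edgeR and the block and -0.039 with DESeq2 and the block.

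Calls among the 10 genes for KO TNF against WT TNF were 7 with the block, 5 with edgeR and the block, 7 with DESeq2, 8 with DESeq2 and the block, and 6 and 7 with the block and TMM or median-ratio scaling. For KO TNF against KO day 0 they were 8 with the block, 8 with edgeR and the block, 10 with DESeq2 and the block, and 8 and 8. For WT TNF against WT day 0 they were 6 with the block, 1 with edgeR, 5 with edgeR and the block, 6 with DESeq2, 7 with DESeq2 and the block, and 5 and 5. The difference of the responses had 5 calls with DESeq2 and the block.

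Among all genes, KO TNF against WT TNF had 1 call, 0 with a pseudocount of 0.1, 13 without a filter, 1131 with the block, 0 with the libraries of the contrast alone, 4 and 2 with TMM and median-ratio scaling (1020 and 1057 with the block), 0 with edgeR (811 with the block) and 593 with DESeq2 (2318 with the block). KO against WT at day 0 had 0, with the block 1, by edgeR with the block 1, by DESeq2 24 (188 with the block), and 1 with the block and either scaling. KO TNF against KO day 0 had 622, with the block 3162, from the contrast alone 71, by edgeR with the block 3074, by DESeq2 1701 (4104 with the block), and 3187 and 3196 with the block and either scaling. WT TNF against WT day 0 had 144, without a filter 78, with the block 1250, from the contrast alone 28, by edgeR 60 (1163 with the block), by DESeq2 874 (2545 with the block), and 1173 and 1167 with the block and either scaling. The difference of the responses had 0, by DESeq2 78 (997 with the block).

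Leaving out 1 library at a time, with and without the block, gave 0 to 8 calls among the 10 genes for KO TNF against WT TNF, 3 to 9 for KO TNF against KO day 0, 0 to 8 for WT TNF against WT day 0 and 0 to 5 for the difference of the responses. Among all genes the ranges were 0 to 1169, 43 to 3069, 0 to 1377 and 0 to 358, and 0 to 2 for KO against WT at day 0. For KO against WT at day 0, log2 differences ranged from -2.24 to 0.10 for Ctsk, -0.58 to 0.64 for Clcn7, -0.25 to 0.39 for Ostm1, -1.07 to 0.21 for Slc4a2, -0.81 to 0.89 for Ckb and -0.42 to 0.080 for Plekhm1. They ranged from -0.27 to 1.79 for Mmp14 in KO TNF against WT TNF and from -4.01 to 0.42 in its difference of responses, and for WT TNF against WT day 0 from -0.37 to 0.27 for Ostm1 and -0.73 to 0.66 for Slc4a2. The cause of these changes was not tested.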
